A study of Mus musculus with 6 samples.

Results

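The genes described here are Cep41, Ttll3 and 8 further genes of the enzymes that modify tubulin, taken as the rows of the deposited table whose gene symbol was Cep41, Ttll3, Ttll1, Ttll4, Ttll5, Ttll12, Ttl, Agtpbp1, Agbl5 or Hdac6. They are 10 of 54232 genes in the table, and each symbol had 1 row. Mouse cultures, which the labels call female germline stem cells, had received C89 (a code name; its structure is not described here) or its solvent DMSO. RNA was taken for sequencing at 8 h, with 3 libraries in each group; the labels give no strain or animal age and do not say whether replicates were separate cultures. The p-values below therefore reflect library-to-library spread, part of which may be technical. The 10 genes were chosen by name with their normalized counts and fold changes in C89 and DMSO libraries already known, Cep41 and Ttll3 because they were among the most consistent increases. Their levels and fold changes are given as a description and support no statement about the family; how many the fit across all genes called is given once, with nothing read from it.

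Microtubules are built from alpha- and beta-tubulin, which are marked by enzymes that add or remove small groups, mostly on the tubulin tails. Enzymes of the tubulin tyrosine ligase-like family add glutamate or glycine chains, the tyrosine ligase itself restores a terminal tyrosine, cytosolic carboxypeptidases trim glutamates, and deacetylases remove acetyl groups from alpha-tubulin. These marks guide motors, severing enzymes and the stability of cilia, centrioles and mitotic spindles. Cep41 encodes a centrosomal and ciliary protein that, in zebrafish and human cells, is needed for glutamylation of ciliary tubulin and works with the glutamylase TTLL6; its mutation causes Joubert syndrome, a ciliopathy.

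Reads recovered from the values came to 7772060 to 17938295 per C89 library and 17826569 to 21763459 per DMSO library. Values are normalized read counts, in which 1 read was worth 0.886 to 2.032 in C89 and 0.667 to 0.797 in DMSO libraries. Libraries 2 and 3 of the C89 group stood close together: 0.7% of genes differed between them beyond sampling noise, while other pairs of a group differed in 29.5 to 53.2%. The chi-square per degree of freedom was 1.63 for this pair and 10.08 to 29.95 for the others. Libraries 2 and 3 were fitted as separate replicates all the same, so the spread within the C89 group may be understated. When both were averaged as 1, the calls given below for Ttll11, Tuba1b, Tubb6, Tbca, Ift74 and Arpc4 were lost (limma adjusted p = 0.0512 to 0.103). Markers of germ cells were scarce, with 8 of 12 at a mean under 1 normalized count; Dazl had no read and Ddx4 averaged 2.74 ± 3.16 in C89 and 1.69 ± 0.939 in DMSO libraries (SD, n = 3 each). The germ cell sum was 149 to 220 in C89 and 187 to 257 in DMSO libraries, mostly from Piwil2 (143 ± 26.9 and 164 ± 16.2). The summed level of 12 mast cell markers was 84133 to 95327 in C89 and 49571 to 59406 in DMSO libraries, most of it from Kit (38360 to 49567 and 26731 to 35469), Gata2 (23364 to 26310 and 15502 to 18590) and Cpa3 (18829 to 21941 and 6710 to 8159), while Ms4a2 and Mrgprb1 had no read. The sum of 10 macrophage markers was 3721 to 3988 in C89 and 1802 to 2716 in DMSO libraries, nearly all from Adgre1 (mean 2173 and 917) and Cd68 (1711 and 1313); Csf1r had 0 to 2.55 in C89 and 0 to 0.797 in DMSO libraries, and C1qb was at 0. The sum of 7 granulosa cell markers was 92.1 to 124 in C89 and 36 to 48.6 in DMSO libraries, with Foxl2, Fshr and Cyp19a1 at 0. Most of this granulosa sum came from Hsd17b1 (mean 86.5 in C89 and 36.6 in DMSO libraries). The sum of 12 fibroblast markers was 66.4 to 147 in C89 libraries and 1363, 2597 and 146 in the DMSO libraries. The third DMSO library thus stood apart from the others. In DMSO libraries 1 and 2 most of it came from Fn1 and Dcn. Fn1 was at 8.13 to 17.8 in C89 libraries and 582, 1225 and 53.3 in DMSO libraries, and Dcn at 12.4 to 36.6 and 451, 714 and 9.55. Col1a1 was at 4.06 to 21.7 and 7.96 to 99.6, and Lum at 0. Of the 11 fibroblast markers tested, limma called 0 higher and 4 lower in C89 libraries, where 12.5% of all genes were higher and 13.6% lower. At an unadjusted p under 0.05, 0 were higher and 8 lower. On recovered reads, edgeR and DESeq2 each called 0 higher and 8 lower. The part of these cell types in the values below was not tested, and in bulk RNA fewer cells of a type and less RNA per cell cannot be told apart.

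The sequences before the starts of Cep41 and Ttll3 are shown because both genes stood highest in fold change among the 10 and because Cep41 belongs to the cilium, many of whose genes are bound by RFX factors at a motif whose core half-site is GTTGCC. The 250 bases before the RefSeq start of Cep41 lie at chr6:30693750-30693999, minus strand, and those before the downstream RefSeq start of Ttll3 at chr6:113392213-113392462, plus strand (both RefSeq, GRCm38.p6; the sources used here do not name the build of the deposited table). Capitals mark GTTGCC or its reverse complement GGCAAC.
Cep41: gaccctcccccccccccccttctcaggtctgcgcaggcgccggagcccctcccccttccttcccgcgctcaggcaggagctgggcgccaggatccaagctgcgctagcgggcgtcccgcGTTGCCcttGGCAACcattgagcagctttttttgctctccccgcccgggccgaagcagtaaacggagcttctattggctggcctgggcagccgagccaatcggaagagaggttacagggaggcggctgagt
Ttll3: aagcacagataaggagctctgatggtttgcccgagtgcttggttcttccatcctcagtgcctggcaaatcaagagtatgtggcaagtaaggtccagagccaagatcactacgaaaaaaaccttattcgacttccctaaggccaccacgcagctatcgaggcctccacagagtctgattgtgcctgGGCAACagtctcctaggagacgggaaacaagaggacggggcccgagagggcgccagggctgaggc
In Cep41 the half-site began 131 bases before the start and its reverse complement 122 bases before it, facing each other with 3 bases between. In Ttll3 GGCAAC stood alone, 65 bases before the downstream start, in 1 of the 2 Ttll3 windows. GTTGCC on either strand was found in 10.4% of 32851 promoter windows of that length, and the facing pair, at most 3 bases apart, in 0.143%; the pair was searched for after the Cep41 sequence had been seen. Of the other members, 7 had windows in the table: GTTGCC was found in the window of Ttll5 and in 1 of 3 windows of Agtpbp1, and not in those of Ttll4, Ttll12, Ttl, Agbl5 or Hdac6. CACGTG, the E-box bound by many basic helix-loop-helix factors (found in 6.02% of windows), and TGACTCA, the AP-1 site (4.46%), were in no window of the 10 genes that had one. The upstream start of Ttll3 lies inside the last exon of Arpc4. Its window held no GTTGCC on either strand and was not printed.

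Cep41 (ENSMUSG00000029790) had 6805, 6068 and 6230 normalized counts in C89 libraries, against 1782, 1921 and 1570 in DMSO libraries. The lowest C89 library was well above the highest DMSO library. The mean was 6368 ± 387 in C89 and 1758 ± 177 in DMSO libraries (SD, n = 3 each), a ratio of 3.62 and a log2 fold change of 1.86 (SE 0.09). Without any 1 library the log2 fold change lay between 1.78 and 1.93.

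Ttll3 (ENSMUSG00000030276), which encodes a glycylase that starts glycine side chains on tubulin, had the highest fold change of the 10. It had 399, 364 and 324 normalized counts in C89 libraries, against 55.3, 56.6 and 51.7 in DMSO libraries. The DMSO libraries differed by a factor of 1.09 and the C89 libraries by a factor of 1.23, and the groups were far apart. The mean was 362 ± 37.5 in C89 and 54.6 ± 2.51 in DMSO libraries (SD, n = 3 each), a ratio of 6.64 and a log2 fold change of 2.70 (SE 0.15; 2.63 to 2.78 without any 1 library). Those means rest on 883 reads in C89 and 219 reads in DMSO libraries.

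**Figure D1:**
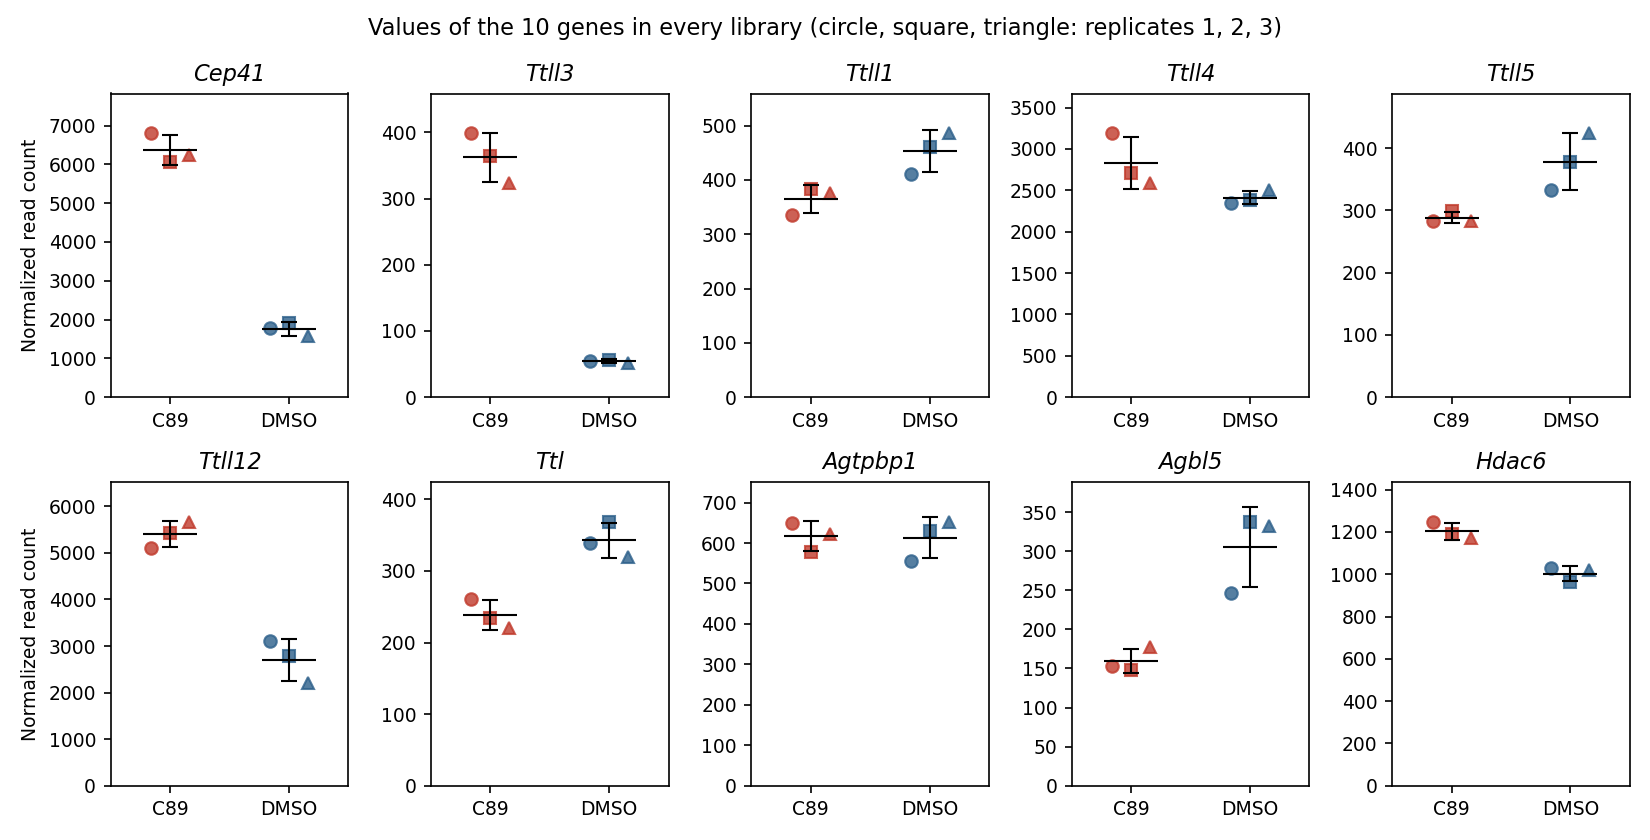
Normalized read counts of the 10 genes (y axis, from 0) in C89 and DMSO libraries (x axis); circles, squares and triangles are replicates 1, 2 and 3, and bars are the mean and SD of 3 libraries. Cep41, Ttll3, Ttll4, Ttll12 and Hdac6 have every C89 library above every DMSO library, Ttll1, Ttll5, Ttl and Agbl5 every C89 library below, and Agtpbp1 overlaps.

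Ttll1, the catalytic subunit of a polyglutamylase complex, had 335, 384 and 376 normalized counts in C89 libraries, against 411, 461 and 486 in DMSO libraries. The C89 values were all below the DMSO values, by a narrow margin, and the log2 fold change was -0.31 (SE 0.11). Ttll5, a glutamylase acting mainly on alpha-tubulin, had 283, 299 and 283 in C89 libraries, against 333, 378 and 424 in DMSO libraries. Here too every C89 library was lower, with a log2 fold change of -0.38 (SE 0.12). Ttll4, a glutamylase that starts side chains and also acts on nucleosome assembly proteins, had 3191, 2713 and 2590 in C89 libraries, against 2344, 2386 and 2500 in DMSO libraries. C89 library 3 lay just above DMSO library 3, and the log2 fold change was 0.23 (SE 0.09), 0.14 without the first C89 library. With libraries scaled by total reads that of Ttll4 was 0.08.

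Ttll12 encodes a member of the ligase-like family for which no ligase activity on tubulin has been established. It had 5109, 5428 and 5672 normalized counts in C89 libraries, against 3106, 2784 and 2205 in DMSO libraries. The groups were clearly separate, the third DMSO library was the lowest, and the spread was wider in DMSO (SD 457, against 282 in C89). The log2 fold change was 1.01 (SE 0.11), and 0.88 without the third DMSO library. Ttl, the ligase that restores the terminal tyrosine of alpha-tubulin, had 261, 234 and 220 in C89 libraries, against 339, 369 and 320 in DMSO libraries. Every C89 library of Ttl was lower, with a mean at 69.6% of that in DMSO and a log2 fold change of -0.52 (SE 0.12).

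Of the enzymes that remove tubulin marks, Agbl5, the carboxypeptidase that takes off the glutamate at the branch point, had 153, 148 and 177 normalized counts in C89 libraries, against 247, 338 and 332 in DMSO libraries. The C89 mean of 160 ± 15.4 was 52.2% of the DMSO mean of 306 ± 50.6 (SD, n = 3 each), the furthest below DMSO of the 10, with a log2 fold change of -0.92 (SE 0.15; -1.07 to -0.85 without any 1 library). Agtpbp1, which shortens glutamate chains and whose loss causes Purkinje cell degeneration in mice, had 650, 577 and 623 in C89 libraries, against 556, 629 and 653 in DMSO libraries. The groups of Agtpbp1 overlapped and its log2 fold change was 0.01 (SE 0.10), of either sign when single libraries were left out (-0.06 to 0.06) and -0.14 with scaling by total reads. Hdac6, the main deacetylase of alpha-tubulin in the cytoplasm, had 1249, 1189 and 1170 in C89 libraries, against 1028, 963 and 1019 in DMSO libraries. Its SD was 3.44% of the mean in C89 and 3.5% in DMSO libraries, every C89 library was higher, and the log2 fold change was 0.26 (SE 0.09; 0.11 with scaling by total reads).

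**Figure D2:**
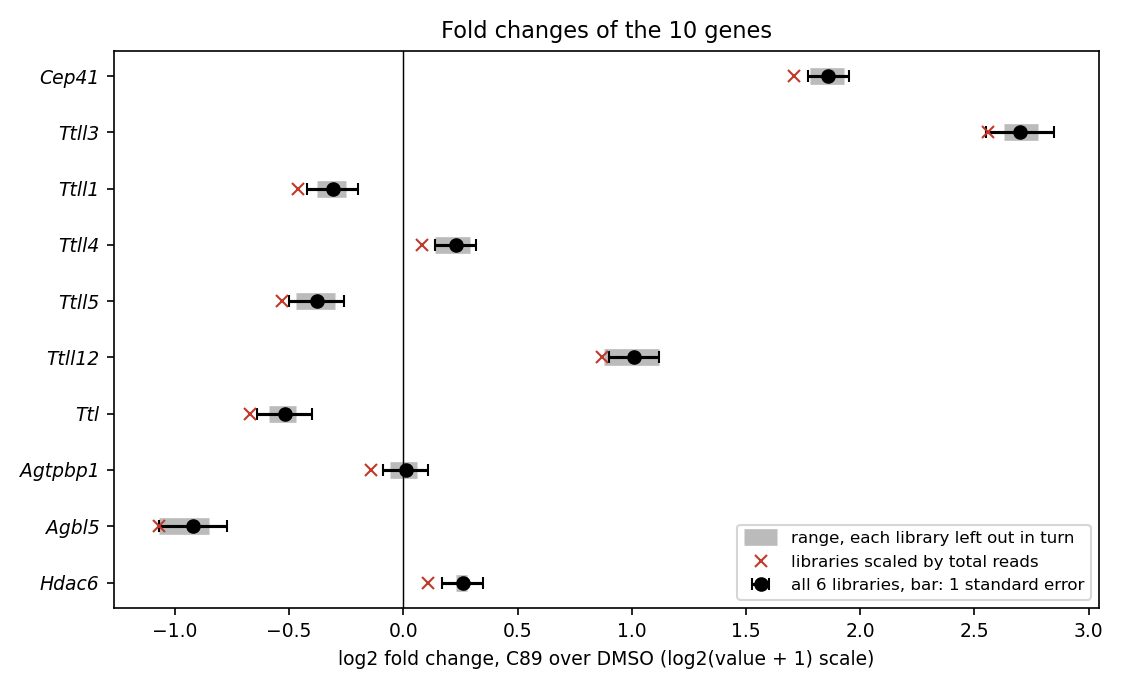
Log2 fold change of each gene, C89 over DMSO, on the log2(value + 1) scale (x axis); black points and bars are the fit over all 6 libraries and 1 standard error, grey bands the range with each library left out, and crosses the values with libraries scaled by total reads. Scaling by total reads lowers every value, and Agtpbp1 changes sign with it.

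All 10 genes had a mean of at least 1 normalized count, the minimum for the fit across all genes. In that fit, limma with Benjamini-Hochberg adjustment over 18954 genes, 7 of the 10 had an adjusted p under 0.05, 4 higher and 3 lower, where 26.1% of all genes did (12.5% higher and 13.6% lower). In 9 of the 10 the groups were separate without overlap, against 40.9% of all genes (19.9% with C89 above and 21% with C89 below). Because the genes were chosen with these values known, nothing is read from either count. With scaling by total reads 3 were higher and 4 lower, and 3 were higher and 2 lower with C89 libraries 2 and 3 as 1 or with any 1 library except DMSO library 1 left out. The median log2 fold change of all genes tested was -0.03, and -0.17 with that scaling, so that fold changes near this size depend on the scaling.

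Per kilobase of merged exon (GENCODE M21), Ttll12, Cep41, Ttll4, Hdac6 and Ttll1 were the highest in both groups, in that order, and the order of the others differed. In C89 libraries Ttll12 averaged 1338 ± 69.9 and Cep41 1279 ± 77.8 normalized counts per kilobase (SD, n = 3 each), with overlapping ranges. In DMSO libraries Ttll12 averaged 668 ± 113 and Cep41 353 ± 35.5 per kilobase, without overlap. Ttll4, Hdac6 and Ttll1 followed in both groups, at 246, 207 and 125 per kilobase in C89 and 209, 173 and 155 in DMSO libraries; the ranges of Hdac6 and Ttll1 touched in DMSO. Ttll3 was the lowest of the 10 in DMSO libraries at 10.8 ± 0.498 per kilobase, and in C89 libraries it was at 71.8 ± 7.44, above Ttl at 40.1, Agtpbp1 at 28.3, Agbl5 at 22.6 and Ttll5 at 18.2. Among the lower genes in DMSO libraries were Ttl at 57.7, Agbl5 at 43.3, Agtpbp1 at 28.1 and Ttll5 at 23.8 per kilobase, and the ranges of Agtpbp1 and Ttll5 overlapped. Which transcripts the reads came from is not known, so lengths of expressed forms may differ from the merged exons.

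**Figure D3:**
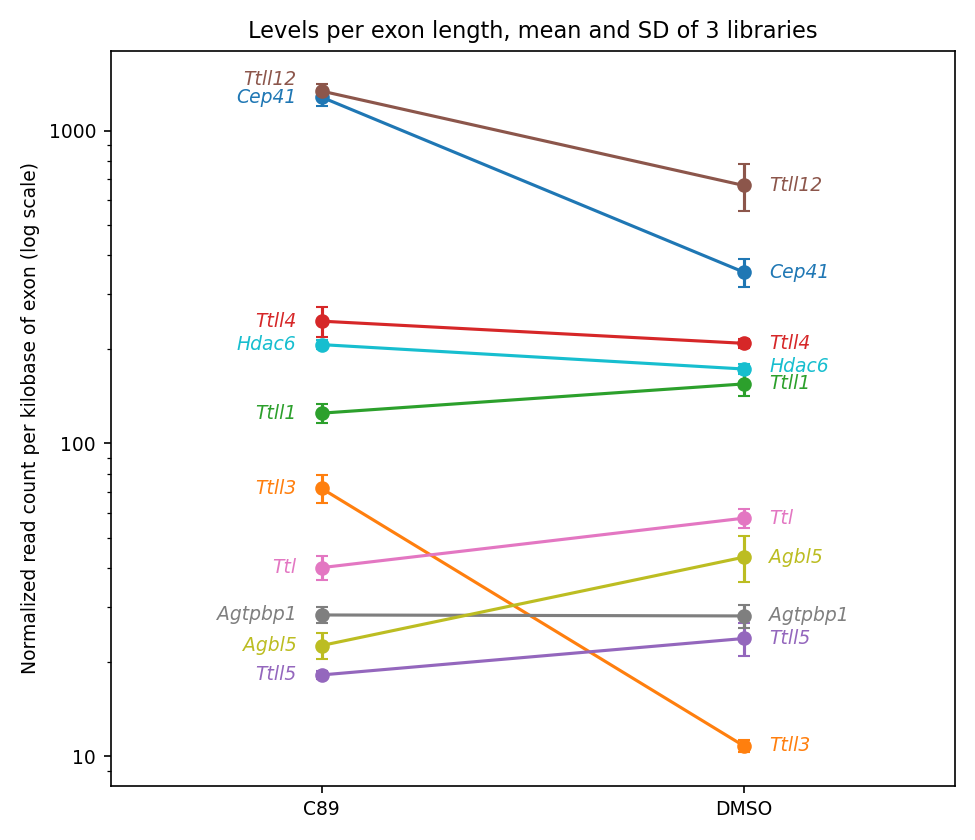
Mean normalized read count per kilobase of merged exon (y axis, log scale) of the 10 genes in C89 and DMSO libraries (x axis), with lines joining the same gene and bars for the SD of 3 libraries. The line of Ttll3 crosses those of Ttl, Agbl5, Agtpbp1 and Ttll5, and Cep41 meets Ttll12 in C89 libraries.

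Both genes with the highest fold changes lie on chromosome 6, at separate loci, and the values of their neighbours were compared because adjoining genes can share reads. Of the nearest protein-coding genes beside Cep41, Mest, an imprinted hydrolase gene, averaged 246 ± 14 in C89 and 208 ± 25.1 in DMSO libraries (log2 fold change 0.25, limma adjusted p = 0.201), and Copg2, a coat protein gene, 1086 ± 46.3 and 1056 ± 41.9 (0.04, adjusted p = 0.783; SD, n = 3 each). The carboxypeptidase genes Cpa1, Cpa4 and Cpa5 and the gene Tsga13 on either side had 0 to 4 reads per group. The antisense gene Gm13782 at the Cep41 locus had 1 read in each group.

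Around Ttll3 the neighbours that passed the test were lower in C89 libraries. Rpusd3, a mitochondrial pseudouridine synthase gene, averaged 35.8 ± 8.27 in C89 and 94.6 ± 8.73 in DMSO libraries (SD, n = 3 each), with a log2 fold change of -1.40 and an SE of 0.23 (limma adjusted p = 9.56e-04). Tada3, a gene of histone acetyltransferase complexes, averaged 338 ± 13.7 and 587 ± 31.0 (log2 fold change -0.79, limma adjusted p = 2.31e-04). Arpc4, an actin nucleation subunit whose last exon holds 283 exon bases of Ttll3 on the same strand, averaged 1117 ± 78.8 in C89 and 1375 ± 144 in DMSO libraries (log2 fold change -0.30, limma adjusted p = 0.0442). Leaving out any 1 library except DMSO library 3 ended that call (limma adjusted p = 0.0664 to 0.138). How reads of these shared bases were assigned is not stated in the sources used here, which leaves the Ttll3 level uncertain. The size of that uncertainty is not known. In DMSO libraries the Arpc4 mean of 1375 stood far above the Ttll3 mean of 54.6. Jagn1 had a log2 fold change of 0.19 (limma adjusted p = 0.18) and Camk1 of -0.27 (0.52), and Cidec had 2 and 4 reads. Of the other members, Agbl5 shares 677 exon bases with Ost4 on the opposite strand, which averaged 413 ± 70.8 in C89 and 481 ± 9.46 in DMSO libraries (log2 fold change -0.23, limma adjusted p = 0.213).

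**Figure D4:**
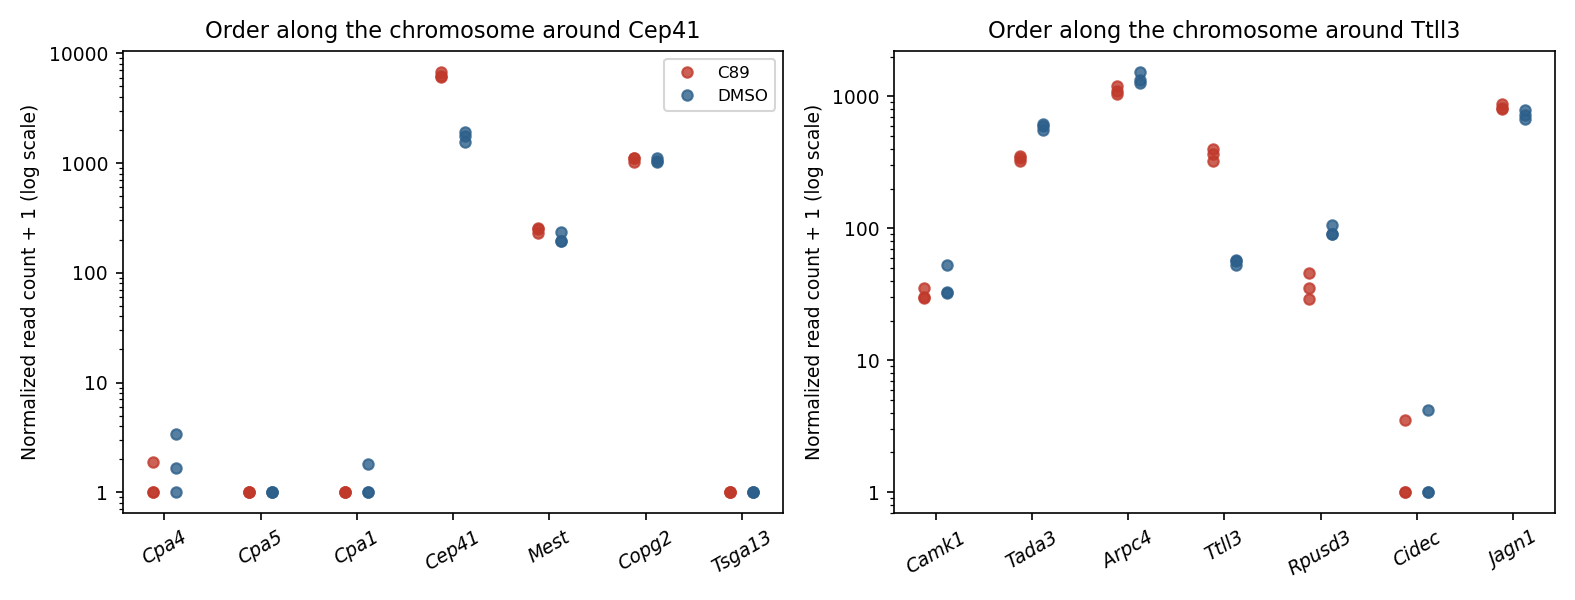
Normalized read count + 1 (y axis, log scale) of Cep41, of Ttll3 and of the 3 nearest protein-coding genes on each side, in their order along the chromosome (x axis); points are single libraries, C89 left and DMSO right within each gene. Cep41 and Ttll3 stand apart between the groups with C89 above, while Tada3, Arpc4 and Rpusd3 have C89 below.

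Of 21 other genes of tubulin modification, 15 had a mean of at least 1 normalized count, and with limma 1 fell and 0 rose at an adjusted p under 0.05. At an unadjusted p under 0.05, 2 were higher and 5 lower, and edgeR and DESeq2 called 0 higher and 1 and 0 lower. The median log2 fold change was -0.28, against -0.03 over all genes, of which limma called 12.5% higher and 13.6% lower. The gene that fell was Ttll11, a glutamylase that lengthens side chains, at 84.1, 79.3 and 91.7 normalized counts in C89 libraries, against 109, 121 and 144 in DMSO libraries; its log2 fold change was -0.54 with an SE of 0.17 (limma adjusted p = 0.0378). Its call was lost without any 1 library but the first DMSO library (limma adjusted p = 0.0677 to 0.125). Ttll6, the glutamylase with which Cep41 works in cilia, had 0 reads in C89 and 2 reads in DMSO libraries. The genes Tpgs1, Tpgs2 and Nicn1, whose products form a complex with Ttll1, had log2 fold changes of -0.32, -0.35 and -0.30 and did not pass the test (limma adjusted p = 0.0634, 0.0767 and 0.112). Atat1, the alpha-tubulin acetyltransferase that opposes Hdac6, was at 70.0, 97.5 and 125 in C89 and 105, 108 and 135 in DMSO libraries (log2 fold change -0.28, limma adjusted p = 0.384). Sirt2, another tubulin deacetylase, had a log2 fold change of 0.24 (adjusted p = 0.0955) and Svbp, the partner of the detyrosinating vasohibins, one of 0.21 (adjusted p = 0.257). With scaling by total reads 6 genes were lower and 0 higher. The count of lower genes was 0 when DMSO library 2 or C89 library 2 was left out, and 2 when DMSO library 3 or C89 library 1 was.

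Tubulin genes themselves moved in both directions. Of 17, 16 were tested, 5 rose and 3 fell, where 12.5% of all genes rose and 13.6% fell. The median log2 fold change of the list was 0.22. Tubb4a, a beta-tubulin gene known mainly from brain, averaged 134 ± 18.3 in C89 and 43.5 ± 7.53 in DMSO libraries (SD, n = 3 each), with a log2 fold change of 1.61 and an SE of 0.21 (limma adjusted p = 2.21e-04). Tubb2a fell, with means of 905 ± 72.3 and 1207 ± 13.0 (log2 fold change -0.42, limma adjusted p = 0.00523). Tuba1b rose, with a log2 fold change of 0.47 (limma adjusted p = 0.00836; 0.0584 without the second C89 library). Tubb6 rose to 1207, 1197 and 1185 in C89 libraries, against 949, 708 and 341 in DMSO libraries, with a log2 fold change of 0.97 (limma adjusted p = 0.0161). That of Tubb6 was 0.55 without the third DMSO library, and the call was lost without any 1 C89 library (limma adjusted p = 0.0596 to 0.0738). With all libraries kept, DESeq2 did not call Tubb6 (DESeq2 adjusted p = 0.113). The number of tubulin genes called was 5 without the second DMSO or the first C89 library and 3 when library 2 or 3 of the C89 group was left out, and scaling by total reads gave 3 higher and 4 lower. Of 7 genes of tubulin folding and assembly, Tbcc fell, at 146 ± 16.0 in C89 and 343 ± 61.3 in DMSO libraries (log2 fold change -1.21, limma adjusted p = 2.20e-04), and Tbca rose (0.42, adjusted p = 0.021). The Tbca call was lost without library 2 or library 3 of either group (limma adjusted p = 0.0636 to 0.109), where 1 gene of the list was called. Under total-read scaling 0 rose and 3 fell.

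Some genes that share a disease or compartment with Cep41 were called in each direction. Of 28 Joubert syndrome and transition zone genes, 27 were matched and tested; 3 rose and 3 fell, with a median of -0.18, where 12.5% of all genes rose and 13.6% fell. Tctn2, of the tectonic complex at the base of the cilium, had 753, 451 and 506 normalized counts in C89 libraries, against 197, 116 and 77.2 in DMSO libraries (log2 fold change 2.19, SE 0.28, limma adjusted p = 1.95e-04). Tmem216, another transition zone gene, averaged 2264 ± 181 in C89 and 914 ± 235 in DMSO libraries (SD, n = 3 each; 1.34, adjusted p = 1.23e-04, limma). Inpp5e, a ciliary phosphoinositide phosphatase, fell to 276, 244 and 243 in C89 libraries, against 499, 539 and 642 in DMSO libraries (log2 fold change -1.13, limma adjusted p = 8.24e-05). Tmem67 fell as well (-0.80, limma adjusted p = 0.00388). Under total-read scaling, 3 of them rose and 8 fell.

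Of 25 genes of intraflagellar transport, the traffic that builds cilia, 22 were tested. Among these, 2 rose and 4 fell, where 12.5% of all genes rose and 13.6% fell, and the list median was -0.05. Kifap3, a subunit of the kinesin-2 motor, averaged 1204 ± 86.0 in C89 and 1831 ± 92.1 in DMSO libraries (SD, n = 3 each; log2 fold change -0.61, limma adjusted p = 5.40e-04). Ift172 and Ift140 fell with -0.61 and -0.53 (limma adjusted p = 0.00562 and 0.00746), and Ift74 rose with 0.46 (adjusted p = 0.0186). Leaving out DMSO library 2 or C89 library 3 raised the adjusted p of Ift74 to 0.0767 or 0.0835, and either way 0 genes of the list rose and 4 fell. Leaving out C89 library 2 gave 1 that rose and 3 that fell, and total-read scaling 0 and 8. Of 26 genes of microtubule-associated and severing proteins, 23 were tested. Among these, 0 rose and 6 fell, where 12.5% of all genes rose and 13.6% fell, and the list median was -0.20. At an unadjusted p under 0.05, 1 was higher and 8 lower, and edgeR and DESeq2 called 0 higher and 6 and 7 lower. Mapre2, a plus-end binding protein gene, averaged 758 ± 62.6 in C89 and 1178 ± 72.9 in DMSO libraries (log2 fold change -0.64, limma adjusted p = 6.46e-04). Fignl1 and Map1s fell with -0.54 and -0.44 (limma adjusted p = 0.00412 and 0.00647). When DMSO library 2, C89 library 2 or C89 library 3 was left out, 4 genes of the list fell; without C89 library 1, 1 rose and 6 fell, and with total-read scaling 10 fell.

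**Figure D5:**
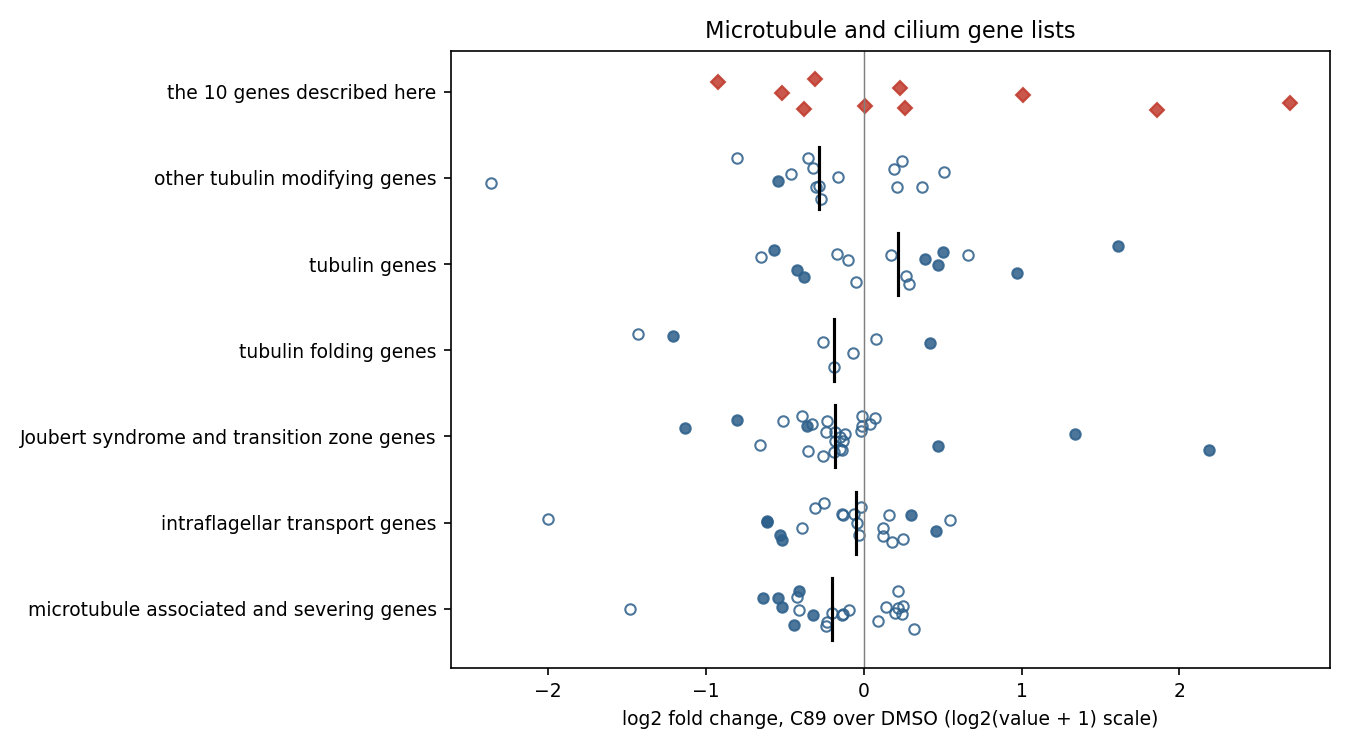
Log2 fold change, C89 over DMSO, of single genes (points, x axis) in each list (y axis); red diamonds are the 10 genes described here, filled circles have a limma adjusted p under 0.05, open circles do not, and black lines are list medians. Tctn2 at 2.19 and Tubb4a at 1.61 have the highest called values among the other genes, while the list medians lie between -0.28 and 0.22.

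Markers of cells with many motile cilia were low. Of 15, 10 had a mean under 1 normalized count, Mcidas, Gmnc and Rsph1 had no read, and the sum was 178 to 193 in C89 and 169 to 197 in DMSO libraries, so the groups overlapped. Ccdc40 gave the largest part of that sum. Its mean was 105 ± 11.5 in C89 and 113 ± 14.8 in DMSO libraries (log2 fold change -0.10, limma adjusted p = 0.73). Foxj1, the transcription factor of motile cilia, had 8.86, 8.13 and 11.5 in C89 libraries, against 1.33, 0 and 1.59 in DMSO libraries (log2 fold change 2.51, SE 0.60, limma adjusted p = 0.00807), from 23 reads and 4 reads. That fold change of Foxj1 was 1.28 with a pseudocount of 5 and 3.27 with DESeq2. The axonemal gene Ccdc39 averaged 49.2 ± 4.07 in C89 and 20.5 ± 6.94 in DMSO libraries (log2 fold change 1.27, limma adjusted p = 0.00762). Ccno, a cyclin gene of centriole amplification, had a log2 fold change of -0.99 (limma adjusted p = 0.032). The limma adjusted p of Ccno was 0.0563 to 0.0985 with any 1 library except C89 library 3 left out. With all libraries kept, DESeq2 did not call Ccno (DESeq2 adjusted p = 0.0908).

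The genes whose values followed those of Cep41 and Ttll3 most closely were found by the root mean square difference between profiles on the log2(value + 1) scale, each centred on its own mean over the 6 libraries. Among 9798 genes averaging 50 or more normalized counts, the nearest to Cep41 were Adam18 (difference 0.113), Tmem140 (0.128), the transferrin receptor gene Tfrc (0.133), the lipoxygenase gene Alox15 (0.146) and Nmnat1, an enzyme of nuclear NAD synthesis (0.148). The level of Tfrc was 25043, 22330 and 22470 normalized counts in C89 libraries, against 7889, 7111 and 5081 in DMSO libraries. The nearest to Ttll3 were Dqx1 (0.193), Prss44 (0.220), Klhl30 (0.233), Aoc2 (0.235) and the apolipoprotein gene Apoe (0.245). Klhl30 had 1105, 681 and 622 in C89 libraries, against 139, 100 and 111 in DMSO libraries. Cep41 and Ttll3 differed from each other by 0.429, since the fold of Ttll3 was larger. These likenesses rest on the same 6 libraries in 2 groups and mostly describe the size of the difference between the groups.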

How the data were processed

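Messenger RNA was sequenced from 3 C89 and 3 DMSO libraries. Per the submitters' processing notes, HISAT2 and DESeq2 were used; the sources used here give no versions, build, annotation or counting software. The deposited values per library are a signal of read counts that the authors divided by 1 size factor per library: all 119020 values above 0 (100%) were whole reads within 0.01 read. The deposited table also holds the authors' own log2 fold changes and adjusted p-values, named as such per the file headers and not printed. The table has 54232 genes; 1 gene with text in place of a value was dropped, and 6 unnamed columns were not used. Symbols came from a reference table by Ensembl identifier (54079 matched, 153 not).

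limma 3.58.1 (R 4.3.3), with a mean-variance trend and group as the only term, was fitted to log2(value + 1) of the 18954 genes that averaged 1 or more, with Benjamini-Hochberg adjustment and a threshold of 0.05. This scale understates the change of low genes. limma called 4946 genes. On recovered reads, edgeR 4.0.16 called 4652 and DESeq2 1.42.0, an alternative too, called 4511. The procedure was tested on simulated data with independent libraries and the same spread setting for every gene. That test did not cover the likeness of C89 libraries 2 and 3. Counting error limits genes of few reads, and reads carry no molecular identifiers here. The members and lists were chosen with earlier results of these data known. Genes named are the members, the 4 called genes of lowest p in each list with a mean of at least 5, Atat1, Sirt2, Svbp, 3 neighbours on each side, 5 genes of nearest profile and a few markers; Ttll6, Tpgs1, Tpgs2, Nicn1, Ccdc39, Ccno, overlapping genes and markers at 0 were added after values had been seen. A gene that this rule names is not reported here. Figures were drawn with matplotlib 3.10.9.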

Additional observations from a re-analysis of the deposited data

How the results depend on the processing

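The log2 fold changes of Cep41 and Ttll3 were 1.71 and 2.56 with libraries scaled by total reads, more than 1 SD between replicates below the values of 1.86 and 2.70; they ranged from 1.78 to 1.93 and from 2.63 to 2.78 with each library left out, and the other alternatives moved them by less than 1 SD. The 4946 genes called became 3296 when C89 libraries 2 and 3 were averaged as 1, and 3139 to 4752 with each library left out. In the same setting, 3 tubulin genes were called in place of 8, 1 folding gene in place of 2, 0 other tubulin modifying genes in place of 1, 5 Joubert syndrome genes in place of 6, and 4 intraflagellar transport and 4 microtubule-associated genes in place of 6 each. Other tubulin modifying genes called numbered 6 with scaling by total reads, 0 with DESeq2, 0 with no filter on low values and 2 with a minimum mean of 10. Scaling by total reads called 11 Joubert syndrome and transition zone genes and 10 microtubule-associated genes in place of 6 each. With each library left out, calls ranged from 0 to 2 for other tubulin modifying genes, 3 to 8 for tubulin, 1 to 2 for folding, 5 to 6 for Joubert syndrome, 4 to 7 for intraflagellar transport and 4 to 7 for microtubule-associated genes. The cause of these shifts was not tested, and the effect of fewer libraries was not separated from that of the library left out. The labels do not say whether the replicate numbers pair the libraries. Deviations of same-numbered libraries had correlations of -0.189, -0.178 and 0.023 over genes with a mean of at least 50. Those of libraries with different numbers had -0.16 to 0.259. With 3 libraries per group these values cannot settle whether the libraries were paired. With the replicate block 4092 genes were called, and 1 other tubulin modifying gene, 7 tubulin, 2 folding, 5 Joubert syndrome, 5 intraflagellar transport and 5 microtubule-associated genes. The tubulin modifying gene called there was not Ttll11, whose adjusted p with the block was 0.0603 (limma), and that of Arpc4 was 0.0851; 3 of the 10 genes described were called higher and 2 lower. Genes of few reads, such as Foxj1 and Ttll6, are the least certain, and C89 library 2 was the shallowest at 7772060 reads.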
